A study of Mus musculus with 12 samples.

Results

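The collagen genes were taken by symbol, as Col followed by a number, the letter a and a number with nothing after it, from the deposited table of genes that reached at least 40 reads in some library. The rule found 28 genes among the 12380 of that table. The deposited RPKM table holds 44 such symbols among 24452 genes, and the other 16 stayed below the 40-read minimum. RPKM scales reads to the length of the gene and to the size of the library, so levels of different genes can be compared per length. Of the 28 members, 24 had a mean RPKM of at least 0.5 and entered the tests, while Col11a2, Col4a3, Col4a4 and Col7a1 did not.

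The libraries were RNA-seq of brown adipose tissue from male mice of the strain C57BL/6J Bom, 12 weeks old and kept at 30 °C, a temperature near thermoneutrality for mice. ERRαγAd-/- mice carried floxed alleles of the nuclear receptors ERRα and ERRγ, together with a Cre recombinase under the adiponectin promoter, which acts in fat cells. The WT mice were littermates with the same floxed alleles and no Cre, so a group of Cre mice without floxed alleles is not part of the comparison. Each genotype received an intraperitoneal injection at ZT 4 every day for 10 days, of either PBS or CL316,243 at 1 mg/kg, a drug that activates the β3-adrenergic receptor, and the tissue was collected at 24 h from the final dose. With 3 libraries in each of the 4 groups, the WT groups are called WT PBS and WT CL316,243 and the knockout groups ERRαγAd-/- PBS and ERRαγAd-/- CL316,243. Cre is expected in adipocytes alone, and other cells of the tissue keep both receptors.

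Collagens are triple-helical proteins built from 3 chains. Fibrillar collagens form the load-bearing fibres between cells, type IV collagen forms the sheet of the basement membrane, and type VI collagen forms beaded filaments that link the basement membrane to the surrounding fibres. In fat, every adipocyte is wrapped in a basement membrane, adipocytes themselves transcribe type IV and type VI chains, and fibroblasts are the main source of fibrillar chains. Chains of one molecule are encoded by separate genes, and the genes for the main pair of type IV chains lie head to head.

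Reads recovered from the deposited tables came to between 8478310 and 9727167 per WT library and between 12468001 and 13263567 per ERRαγAd-/- library. Esrra, the gene of ERRα, was at 41.6 to 46.9 in WT PBS, 75.8 to 83.3 in WT CL316,243, 5.25 to 8.89 in ERRαγAd-/- PBS and 6.73 to 8.73 in ERRαγAd-/- CL316,243 (lowest to highest scaled RPKM) as the labels imply. Ucp1, the defining gene of brown adipocytes, was at 315 to 540.1 in WT PBS but at 3.24 to 6.37 in ERRαγAd-/- PBS, and Adipoq was at 812 to 1331 and 1126 to 1708. On the deposited scale the typical gene differed between groups, with a median log2 change of 0.529 for genotype under PBS, 0.629 for genotype under CL316,243, -0.259 for the agonist in WT, -0.16 for the agonist in ERRαγAd-/- and 0.092 for the interaction. Levels are therefore given as RPKM after median-of-ratios scaling, which sets the typical gene to about 0, and changes are log2 of scaled RPKM plus 0.5 with the standard error (SE). Calls use limma with Benjamini-Hochberg adjustment over 12249 genes at a threshold of 0.05, and counts on the deposited scale are given beside those of the gene groups whose count they change. The labels do not say that libraries of a group came from separate animals, so p-values speak only of the variation among these samples, which may be technical. In bulk tissue, fewer cells of a type and less RNA per cell cannot be told apart.

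One WT PBS library stood apart in the collagen genes. In WT PBS replicate 1 the 28 members summed to 477 scaled RPKM, against 628 and 649.6 in the other libraries of its group. It also held more skeletal muscle transcript, with a summed level of 277 for 10 muscle genes against 2.85 and 8.30, and a lower summed level of 7 macrophage genes, 201 against 407 and 313. The part of these differences in the results was not tested. Where leaving that library out changes the call or the direction of a described collagen result, both results are given. For some calls this is a range of adjusted p.

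Promoter sequence is shown for 4 members that carry the findings below: Col5a3, whose transcript was higher in ERRαγAd-/-, Col4a5, whose transcript was lower, and Col6a2 and Col6a3, both higher in ERRαγAd-/- under CL316,243. Each run is from RefSeq on GRCm38.p6, read 5′ to 3′ on the strand of the gene, and ends at the base before the gene start in GENCODE M21. Col5a3 is chr9:20815068-20815317 on the minus strand, Col4a5 is chrX:141475169-141475384 on the plus strand, Col6a2 is chr10:76623631-76623880 on the minus strand and Col6a3 is chr1:90843972-90844221 on the minus strand. Capitals mark the CCAAT box, with those letters, and the GC box (GGGCGG), which in these runs was found on the other strand and so reads CCGCCC.
Col5a3: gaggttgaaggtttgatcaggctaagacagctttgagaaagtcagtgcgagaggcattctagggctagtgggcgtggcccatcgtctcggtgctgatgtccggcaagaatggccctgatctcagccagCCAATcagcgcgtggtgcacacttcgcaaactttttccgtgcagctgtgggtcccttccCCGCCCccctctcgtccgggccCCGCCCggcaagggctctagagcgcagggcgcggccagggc
Col4a5: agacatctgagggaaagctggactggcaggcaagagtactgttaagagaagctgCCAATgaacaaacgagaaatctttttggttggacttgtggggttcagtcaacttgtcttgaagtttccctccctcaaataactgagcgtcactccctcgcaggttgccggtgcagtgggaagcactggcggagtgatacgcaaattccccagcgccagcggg
Col6a2: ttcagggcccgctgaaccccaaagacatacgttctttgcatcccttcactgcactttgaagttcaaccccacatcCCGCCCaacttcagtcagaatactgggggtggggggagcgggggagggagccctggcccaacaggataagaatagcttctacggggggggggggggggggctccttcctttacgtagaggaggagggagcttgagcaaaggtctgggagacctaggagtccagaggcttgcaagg
Col6a3: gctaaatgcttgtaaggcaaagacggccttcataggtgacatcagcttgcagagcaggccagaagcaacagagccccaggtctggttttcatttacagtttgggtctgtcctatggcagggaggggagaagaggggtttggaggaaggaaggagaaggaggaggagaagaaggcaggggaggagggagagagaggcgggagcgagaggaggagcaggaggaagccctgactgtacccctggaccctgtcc
The Col5a3 run holds 1 CCAAT box and 2 GC boxes, the Col4a5 run 1 CCAAT box, the Col6a2 run 1 GC box and the Col6a3 run none of the motifs searched. These were TCAAGGTCA, an extended site of the kind ERR proteins bind, its shorter form AAGGTCA, which lies within it, the CCAAT box, the GC box and TATAAA, the TATA box. Each was searched on both strands in RefSeq windows of 300 bases around the start, which reach past the printed runs, so that the Col4a5 window also holds a GC box outside its run. The upstream of the RefSeq starts was used for Col6a2. TCAAGGTCA was in 0.423% of 32851 windows and in none of those of the 23 members with an entry. AAGGTCA was in 4.72% of all windows and in those of Col23a1 and Col7a1. The CCAAT box was in 37.4% of all windows and 8 members, the GC box in 35.7% and 15 members, and the TATA box in 13.6% and 3 members. A match is a description of letters and not a bound site.

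By level, collagen transcript was mostly fibrillar and type IV. Over all 12 libraries Col3a1 had the highest mean (152 scaled RPKM), followed by Col4a1 (117), Col4a2 (63.7), Col1a2 (49.6), Col6a2 (38.9) and Col6a1 (35.6). The ranges over the 12 libraries of neighbours in this order overlapped. Below them lay Col5a3, Col1a1, Col15a1, Col6a3 and Col5a2, between 33.6 and 13.2, and the 4 members that did not enter the tests had means between 0.191 and 0.374. The summed level of all 28 was 585 ± 93.9 in WT PBS, 416 ± 52.9 in WT CL316,243, 697 ± 62.5 in ERRαγAd-/- PBS and 726 ± 46.8 in ERRαγAd-/- CL316,243 (mean ± SD, n = 3). The sums of the WT groups did not overlap with each other, and neither did those of the CL316,243 groups, while the lowest ERRαγAd-/- PBS library (626) lay below 2 WT PBS libraries. Fibrillar chains made up 39.0% to 53.4% of collagen RPKM in single libraries, type IV chains 24.7% to 39.8% and type VI chains 12.3% to 16.3%.

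Under the agonist the ERRαγAd-/- tissue held more of most collagen transcripts than the WT tissue. With CL316,243 in both genotypes, 14 of 24 members were higher in ERRαγAd-/- and 3 were lower, with a median change of 0.72 against 0.01 over all genes tested. Of all genes tested, 19.9% were called higher and 21.6% lower. Under PBS only 3 members were higher and 5 lower, with a median of 0.23, where 15.6% of all genes were called higher and 18.6% lower. The deposited scale gave 18 higher and 1 lower under CL316,243, with 70.5% of all genes higher and 6.62% lower, and 18 higher and 3 lower under PBS, with 66.3% and 6.22%. The 15 members called higher under PBS on that scale alone include all type VI genes, Col1a1, Col1a2, Col3a1, Col5a1, Col5a2 and Col4a2. A count test on the recovered reads (edgeR, 28 members) called 14 higher and 3 lower under CL316,243 and 3 higher and 5 lower under PBS, with backgrounds of 19.6% and 21.5%, and of 17.7% and 17.1%. The 2 comparisons share no library, but both use the 1 estimate of spread taken from all 12 libraries. A library of one comparison can therefore change calls of the other. Col5a3, Col18a1 and Col4a1 were higher in both, which is 3 of 3 under PBS and 3 of 14 under CL316,243, and Col4a5, Col12a1 and Col13a1 were lower in both, 3 of 5 and 3 of 3.

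**Figure D1:**
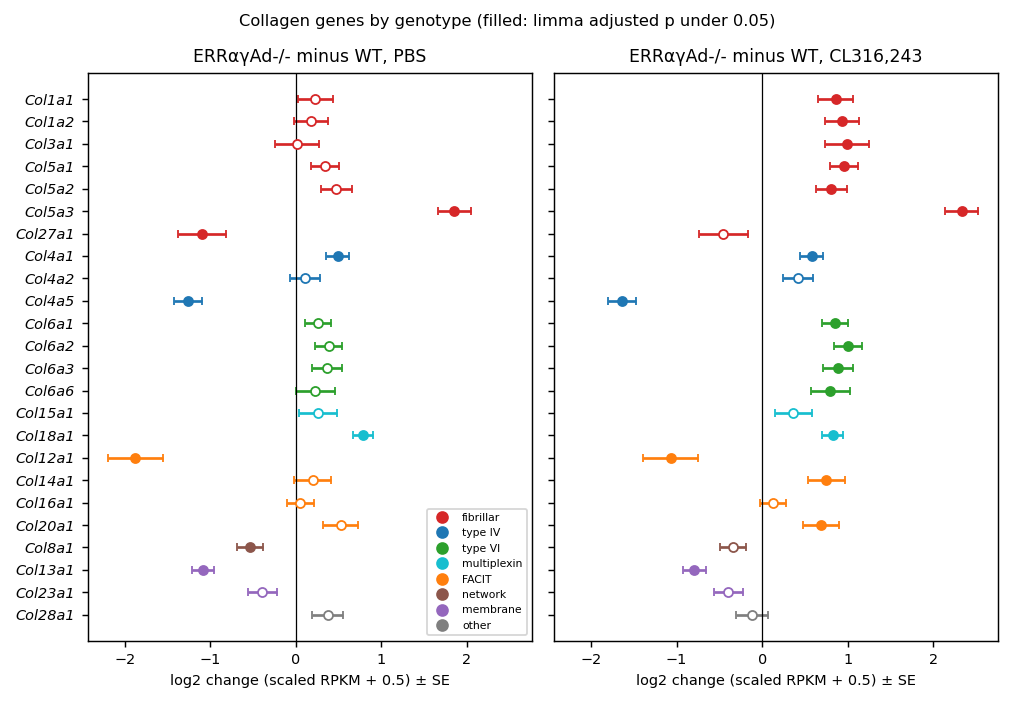
Log2 change ± SE (x axis, log2 of scaled RPKM plus 0.5) of the 24 tested collagen genes (y axis) in ERRαγAd-/- against WT, under PBS on the left and under CL316,243 on the right, coloured by class and filled where the limma adjusted p passed. Under CL316,243 all 4 type VI genes and 6 of 7 fibrillar genes are filled to the right of 0, and Col5a3 lies farthest right in both panels.

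In WT tissue the collagen genes called for the agonist were mostly lower. There 8 of 24 members were lower after CL316,243 and 1 was higher, with a median of -0.37 against 0.02 over all genes tested. In that comparison 12.2% of all genes were called lower and 18.1% higher. The count depends on single libraries: it was 4 lower and 2 higher without WT CL316,243 replicate 2, 5 lower without WT PBS replicate 2 or 3 and 11 lower without WT PBS replicate 1, and the 1 higher became 0 without WT PBS replicate 1 or 2 or WT CL316,243 replicate 1 or 3. In ERRαγAd-/- tissue 1 member was lower and 0 higher by limma, with a median of 0.00, where 3.54% of all genes were called lower and 7.01% higher. No member was higher there at an unadjusted p under 0.05 either, against 16.1% of all genes, and edgeR called 1, Col11a2, which did not enter the limma test (adjusted p = 0.0486). On the deposited scale 15 were lower and 0 higher in WT (38.1% and 7.20% of all genes), and 2 lower and 0 higher in ERRαγAd-/- (13.7% and 3.23%). By edgeR 8 were lower and 1 higher in WT, with 12.3% and 17.1% of all genes, and 1 lower in ERRαγAd-/-, with 4.30% lower and 5.54% higher. The comparison of genotypes under CL316,243 and that of the agonist in WT share the 3 WT CL316,243 libraries, so a low level in those libraries enters both.

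**Figure D2:**
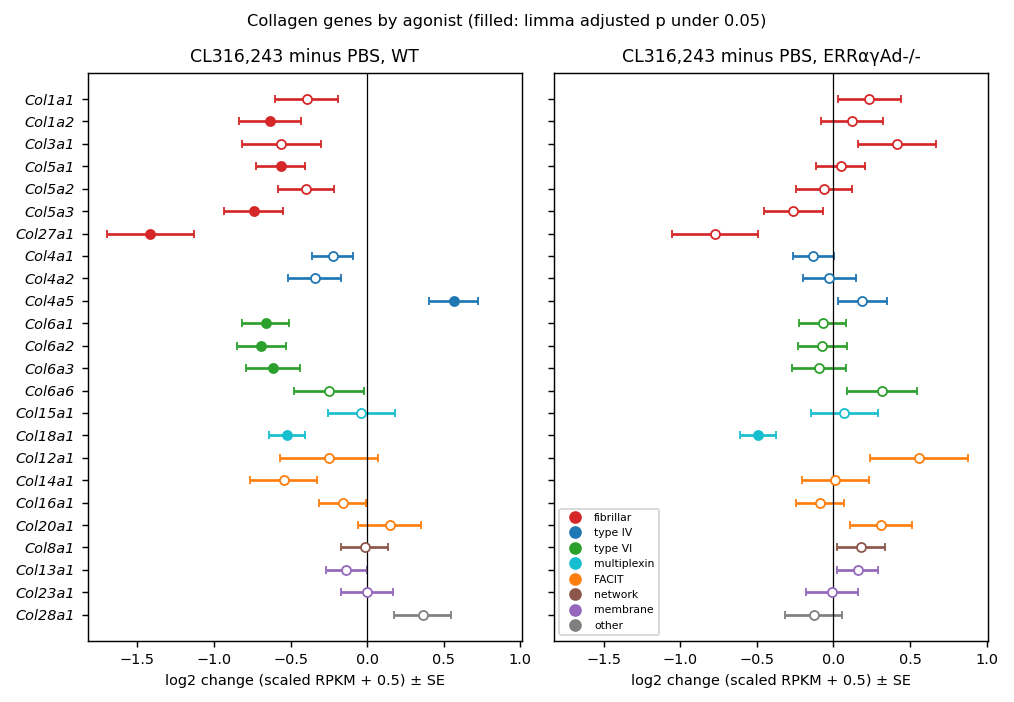
Log2 change ± SE (x axis, log2 of scaled RPKM plus 0.5) of the 24 tested collagen genes (y axis) after CL316,243 against PBS, in WT on the left and ERRαγAd-/- on the right, coloured by class and filled where the limma adjusted p passed. In WT 8 genes are filled to the left of 0 and Col4a5 to the right; in ERRαγAd-/- Col18a1 is filled.

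Among the fibrillar chains, the main chains of types I and III were higher in ERRαγAd-/- under CL316,243. Col3a1, the single chain of type III collagen and the most abundant member, measured 88.8, 185 and 197 in WT PBS, 105, 88.8 and 108 in WT CL316,243, 125, 169 and 158 in ERRαγAd-/- PBS and 241, 193 and 171 in ERRαγAd-/- CL316,243 (scaled RPKM). Every ERRαγAd-/- library lay above every WT library under CL316,243, while under PBS the groups overlapped. The change was 0.99 ± 0.26 (adjusted p = 0.0085) under CL316,243 and 0.01 ± 0.26 (adjusted p = 0.971) under PBS. Col1a1, the first chain of type I collagen, measured 16.6, 32.2 and 31.98 in WT PBS, 20.1, 18.4 and 19.99 in WT CL316,243, 27.9, 29.6 and 33.6 in ERRαγAd-/- PBS and 39.2, 36.7 and 31.6 in ERRαγAd-/- CL316,243. The CL316,243 groups were again apart and the PBS groups overlapped, with changes of 0.86 ± 0.20 (adjusted p = 0.00507) and 0.23 ± 0.20 (adjusted p = 0.414). Without WT PBS replicate 1 the values under PBS turned to -0.35 for Col3a1 and -0.08 for Col1a1, neither called (adjusted p = 0.139 and 0.621). With the agonist in WT both were then called lower, at -0.93 and -0.70 (adjusted p = 0.00281 and 0.00131), against -0.56 ± 0.26 and -0.40 ± 0.20 with all libraries (adjusted p = 0.122 and 0.165). Col1a2, the partner of Col1a1, measured 31.2, 61.1 and 61.4 in WT PBS, 30.8, 31.8 and 31.6 in WT CL316,243, 51.2, 56.6 and 58.4 in ERRαγAd-/- PBS and 64.4, 57.3 and 59.2 in ERRαγAd-/- CL316,243. The 3 WT CL316,243 libraries agreed closely, at the level of WT PBS replicate 1 and below the rest. Col1a2 changed by 0.93 ± 0.20 (adjusted p = 0.00282) with genotype under CL316,243 and by -0.63 ± 0.20 (adjusted p = 0.0321) with the agonist in WT. Under PBS it was at 0.17 ± 0.20 (adjusted p = 0.534), and at -0.14 ± 0.09 (adjusted p = 0.248) without WT PBS replicate 1. The agonist call rests on single libraries: adjusted p ran from 0.0742 to 0.128 without WT PBS replicate 2 or 3 or any one of the WT CL316,243 libraries, was 0.0531 without both ERRαγAd-/- libraries labelled replicate 3, and was 7.68e-05 without WT PBS replicate 1.

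Type V collagen is a minor fibrillar type that sits inside type I fibres and sets their diameter. Col5a1 measured 5.38, 9.28 and 8.42 in WT PBS, 4.87, 4.78 and 5.098 in WT CL316,243, 8.62, 9.804 and 10.7 in ERRαγAd-/- PBS and 10.1, 9.11 and 10.9 in ERRαγAd-/- CL316,243, and Col5a2 ranged from 8.25 to 18.6 over the 12 libraries. Both were higher in ERRαγAd-/- under CL316,243, by 0.95 ± 0.16 (adjusted p = 0.000499) and 0.81 ± 0.18 (adjusted p = 0.00368), and neither passed under PBS, at 0.34 ± 0.16 (adjusted p = 0.12) and 0.47 ± 0.18 (adjusted p = 0.0646). Without WT PBS replicate 2 Col5a1 passed under PBS as well (0.49, adjusted p = 0.0411), and without WT PBS replicate 3 so did Col5a2 (0.65, adjusted p = 0.0157). Without WT PBS replicate 1 the values under PBS were smaller, 0.12 for Col5a1 and 0.23 for Col5a2 (adjusted p = 0.436 and 0.223). That fit called Col5a2 lower after the agonist in WT (-0.64, adjusted p = 0.00705), against -0.40 ± 0.18 (adjusted p = 0.12) with all libraries. Col5a1 was lower after the agonist in WT, by -0.56 ± 0.16 (adjusted p = 0.0197), a call lost without WT PBS replicate 2 or 3 or WT CL316,243 replicate 1 or 2 (adjusted p from 0.053 to 0.0847).

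Col5a3, the third type V chain, had the largest rise of any member with genotype under both treatments. It measured 12.8, 14.5 and 21.7 in WT PBS, 10.2, 8.32 and 9.54 in WT CL316,243, 51.2, 60.1 and 65.98 in ERRαγAd-/- PBS and 40.4, 46.5 and 62.4 in ERRαγAd-/- CL316,243. The lowest ERRαγAd-/- library was at 40.4 and the highest WT library at 21.7, so no library of one genotype reached the other. The mean rose from 16.4 ± 4.71 to 59.1 ± 7.44 under PBS and from 9.36 ± 0.9599 to 49.8 ± 11.3 under CL316,243 (± SD, n = 3). This was a change of 1.85 ± 0.19 (adjusted p = 1.65e-05), or 3.61-fold, and of 2.33 ± 0.19 (adjusted p = 1.66e-06), or 5.03-fold. In WT the agonist lowered Col5a3 by 0.74 on the log2 scale, with -0.74 ± 0.19 and adjusted p = 0.0132, and without WT CL316,243 replicate 2 the value was -0.66 (adjusted p = 0.0526). In ERRαγAd-/- it was -0.26 ± 0.19 (adjusted p = 0.448). The gene lies at chr9:20770050-20815067 on the minus strand (GENCODE M21, GRCm38) and shares no exon base with another annotated gene. The ratio of Col5a3 to Col5a1 within a library, formed after the values were seen and not tested, was 1.57 to 2.58 in the WT libraries and 4.01 to 6.19 in the ERRαγAd-/- libraries.

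Col27a1, a fibrillar chain known from cartilage, went the other way. It measured 22.8, 11.2 and 7.74 in WT PBS, 3.84, 4.596 and 4.86 in WT CL316,243, 6.42, 4.91 and 5.71 in ERRαγAd-/- PBS and 2.73, 3.45 and 3.13 in ERRαγAd-/- CL316,243. WT PBS replicate 1, the lowest of its group in the other tested fibrillar chains, was the highest of all 12 here, and even so the PBS groups did not overlap. Col27a1 was lower in ERRαγAd-/- under PBS, by -1.09 ± 0.28 (adjusted p = 0.01), and lower after the agonist in WT, by -1.42 ± 0.28 (adjusted p = 0.00288). Without WT PBS replicate 1 both calls held at smaller size, -0.68 ± 0.17 (adjusted p = 0.0118) and -1.001 ± 0.17 (adjusted p = 0.00193), and 2 more appeared: under CL316,243 by genotype, -0.45 ± 0.15 (adjusted p = 0.0333) against -0.45 ± 0.28 (adjusted p = 0.223) in all 12 libraries, and with the agonist in ERRαγAd-/-, -0.78 ± 0.15 (adjusted p = 0.0107) against -0.78 ± 0.28 (adjusted p = 0.104). On the deposited scale the genotype value under PBS was -0.53 (adjusted p = 0.122). Col11a2, the eighth fibrillar member, lay between 0.191 and 0.682 and was tested by edgeR alone, with adjusted p of 0.189 and 0.312 for genotype.

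**Figure D3:**
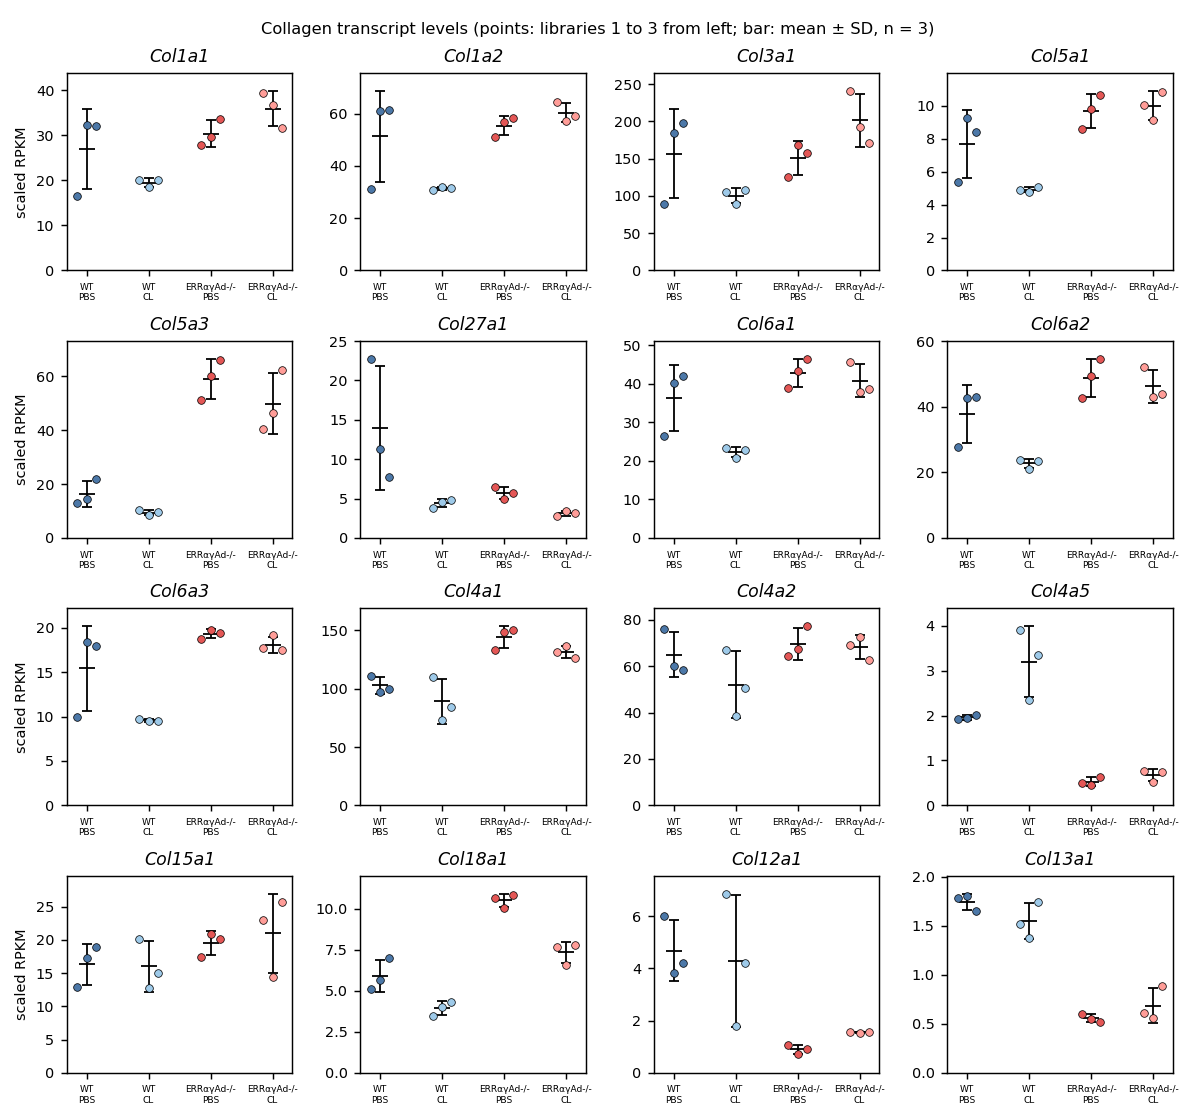
Scaled RPKM (y axes, from 0) of 16 collagen genes in the 4 groups (x axes); points are libraries 1 to 3 from left to right and bars the mean ± SD (n = 3). Col5a3 and Col18a1 sit higher in both ERRαγAd-/- groups, Col4a5, Col12a1 and Col13a1 lower, and in WT PBS the first library lies below the other 2 for Col1a1, Col1a2, Col3a1, Col5a1 and the type VI genes and above them for Col27a1.

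All 4 type VI members were higher in ERRαγAd-/- under CL316,243, against 19.9% of all genes. Type VI collagen needs the chains of Col6a1, Col6a2 and Col6a3 in 1 molecule. Col6a1 measured 26.6, 40.2 and 42.1 in WT PBS, 23.3, 20.8 and 22.8 in WT CL316,243, 38.9, 43.2 and 46.3 in ERRαγAd-/- PBS and 45.7, 37.9 and 38.8 in ERRαγAd-/- CL316,243. Col6a2 measured 27.6, 42.7 and 43.05 in WT PBS, 23.8, 21.1 and 23.4 in WT CL316,243, 42.7, 49.2 and 54.4 in ERRαγAd-/- PBS and 52.1, 42.9 and 43.8 in ERRαγAd-/- CL316,243, and Col6a3 measured 9.95, 18.4 and 17.96 in WT PBS, 9.69, 9.47 and 9.504 in WT CL316,243, 18.7, 19.7 and 19.4 in ERRαγAd-/- PBS and 17.7, 19.1 and 17.4 in ERRαγAd-/- CL316,243. For all of these genes the WT CL316,243 libraries were the lowest group without overlap, and the ERRαγAd-/- libraries lay close together whatever the treatment. Under CL316,243 the ERRαγAd-/- libraries were higher by 0.85 ± 0.15 (adjusted p = 0.00079), 1.004 ± 0.16 (adjusted p = 0.000318) and 0.89 ± 0.18 (adjusted p = 0.0016). Col6a6, a rarer chain read by 19 to 166 reads per library, was also higher, by 0.80 ± 0.23 (adjusted p = 0.0145), with all ERRαγAd-/- libraries (0.778 to 1.15) above all WT libraries (0.280 to 0.329). Its call was lost without ERRαγAd-/- CL316,243 replicate 3 (0.68, adjusted p = 0.0605), and edgeR gave 1.54, a larger value at this low level. The median over the 4 genes was 0.87.

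Under PBS 0 of 4 type VI members were called by limma or edgeR, with a median of 0.31 and 1 of 4 at an unadjusted p under 0.05, where 21.4% of all genes were higher. All 4 were called higher on the deposited scale (median 0.899), as were 66.3% of all genes. The values were 0.26 ± 0.15 (adjusted p = 0.21) for Col6a1, 0.39 ± 0.16 (adjusted p = 0.0812) for Col6a2, 0.36 ± 0.18 (adjusted p = 0.131) for Col6a3 and 0.23 ± 0.23 (adjusted p = 0.468) for Col6a6. These rest on the WT PBS libraries: without replicate 3 Col6a2 was at 0.50 (adjusted p = 0.0424), and without replicate 1 the same 4 genes were at 0.06, 0.18, 0.09 and 0.30, none called. With the agonist in WT, Col6a1, Col6a2 and Col6a3 fell by 0.66, 0.69 and 0.61 on the log2 scale (adjusted p = 0.00676, 0.00669 and 0.0204). The Col6a3 call was lost without WT PBS replicate 2 or 3 or WT CL316,243 replicate 2 or 3 (adjusted p from 0.0549 to 0.0874), and without WT PBS replicate 1 all of these changes were larger, -0.87 ± 0.11 (adjusted p = 0.000359), -0.90 ± 0.12 (adjusted p = 0.000513) and -0.89 ± 0.08 (adjusted p = 5.65e-05). In ERRαγAd-/- the agonist left the same genes at -0.07 ± 0.15, -0.07 ± 0.16 and -0.09 ± 0.18, with adjusted p from 0.807 to 0.833 and 95% intervals that together reach from -0.475 to 0.291.

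Of the 3 tested type IV chains, 1 was higher and 1 lower in ERRαγAd-/- under each treatment. Of all genes 15.6% were called higher and 18.6% lower under PBS, and 19.9% and 21.6% under CL316,243. With 3 genes the class count cannot be told from those shares. Col4a1 and Col4a2 encode the 2 chains of the most common basement membrane network, and their genes lie head to head on chromosome 8 and overlap by 22 bases at their starts (GENCODE M21, GRCm38). Col4a1 measured 111, 97.6 and 99.5 in WT PBS, 110.5, 72.9 and 83.99 in WT CL316,243, 133, 149 and 150.4 in ERRαγAd-/- PBS and 132, 137 and 126 in ERRαγAd-/- CL316,243. Each ERRαγAd-/- group lay wholly above the WT group of the same treatment. The change was 0.49 ± 0.13 (adjusted p = 0.0138) under PBS and 0.58 ± 0.13 (adjusted p = 0.00407) under CL316,243. The first call was lost when the 2 ERRαγAd-/- libraries with most muscle transcript, replicate 3 of each treatment, were left out together (0.45, adjusted p = 0.0657). Col4a2 measured 76.04, 60.3 and 58.3 in WT PBS, 67.1, 38.5 and 50.5 in WT CL316,243, 64.3, 67.2 and 77.2 in ERRαγAd-/- PBS and 69.05, 72.7 and 62.7 in ERRαγAd-/- CL316,243. Its groups overlapped under both treatments, and it did not pass, at 0.11 ± 0.17 (adjusted p = 0.669) and 0.42 ± 0.17 (adjusted p = 0.0711). Without WT CL316,243 replicate 1 Col4a2 was called under CL316,243 (0.61, adjusted p = 0.00897), and both genes were then called lower with the agonist in WT, Col4a1 at -0.39 (adjusted p = 0.026) and Col4a2 at -0.54 (adjusted p = 0.0259), against -0.22 ± 0.13 (adjusted p = 0.228) and -0.34 ± 0.17 (adjusted p = 0.159) with all libraries.

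Col4a5, a chain of the other basement membrane networks, encoded on the X chromosome, was lower in ERRαγAd-/-. It measured 1.91, 1.95 and 2.02 in WT PBS, 3.91, 2.34 and 3.34 in WT CL316,243, 0.492, 0.455 and 0.6399 in ERRαγAd-/- PBS and 0.763, 0.525 and 0.736 in ERRαγAd-/- CL316,243. The highest ERRαγAd-/- library was at 0.763 and the lowest WT library at 1.91, and within WT the CL316,243 libraries lay above the PBS libraries. The change with genotype was -1.26 ± 0.16 (adjusted p = 8.33e-05) under PBS and -1.64 ± 0.16 (adjusted p = 7.08e-06) under CL316,243. At this low level the added 0.5 makes the change smaller, and edgeR, which uses no such constant, gave -1.86 and -2.25 on the log2 scale. With the agonist Col4a5 was the member called higher in WT, by 0.56 ± 0.16 (adjusted p = 0.0205). This call was lost without WT PBS replicate 1 or 2 or WT CL316,243 replicate 1 or 3 (adjusted p from 0.0522 to 0.0837) and on the deposited scale (0.28, adjusted p = 0.183). In ERRαγAd-/- the value was 0.19 ± 0.16 (adjusted p = 0.523). The gene is at chrX:141475385-141689234 on the plus strand and was read by 61 to 311 reads per library. Its ratio to Col4a1 within a library, formed after the values were seen and not tested, was 0.0172 to 0.0398 in WT and 0.00305 to 0.00582 in ERRαγAd-/-. Col4a3 and Col4a4, partners of Col4a5 in its network, lay between 0.0542 and 0.464 and were tested by edgeR alone, which called neither in any comparison (smallest adjusted p 0.0507, for Col4a3 under PBS).

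Of the 2 multiplexins, collagens of the basement membrane zone, 1 was called. Col18a1, the source of the fragment endostatin, measured 5.09, 5.69 and 6.999 in WT PBS, 3.48, 4.04 and 4.31 in WT CL316,243, 10.7, 10.1 and 10.8 in ERRαγAd-/- PBS and 7.66, 6.61 and 7.796 in ERRαγAd-/- CL316,243. None of the 4 pairs of groups compared overlapped. Col18a1 was higher in ERRαγAd-/- by 0.79 ± 0.12 (adjusted p = 0.000285) under PBS and 0.82 ± 0.12 (adjusted p = 0.000151) under CL316,243. It was lower after the agonist in WT by -0.53 ± 0.12 (adjusted p = 0.00609) and in ERRαγAd-/- by -0.49 ± 0.12 (adjusted p = 0.0229), the only member called for the agonist in that genotype. The last call was lost without ERRαγAd-/- PBS replicate 1 or 3 or ERRαγAd-/- CL316,243 replicate 2, and without both muscle-rich libraries (adjusted p from 0.0669 to 0.106). The test of the difference between the 2 agonist responses gave 0.03 ± 0.17 (adjusted p = 0.951). Col15a1 measured 12.9, 17.2 and 18.9 in WT PBS, 20.2, 12.8 and 15.01 in WT CL316,243, 17.4, 20.8 and 20.1 in ERRαγAd-/- PBS and 23.01, 14.3 and 25.7 in ERRαγAd-/- CL316,243. All of its groups overlapped and it was called in no comparison, at 0.26 ± 0.22 (adjusted p = 0.387) and 0.36 ± 0.22 (adjusted p = 0.204) for genotype, although without ERRαγAd-/- CL316,243 replicate 2 it passed under CL316,243 (0.62, adjusted p = 0.028).

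Fibril-associated chains decorate the surface of fibres. Col12a1, found in tissue under tension, measured 6.01, 3.83 and 4.195 in WT PBS, 6.87, 1.79 and 4.19 in WT CL316,243, 1.08, 0.7103 and 0.905 in ERRαγAd-/- PBS and 1.55, 1.51 and 1.58 in ERRαγAd-/- CL316,243. The genotypes did not overlap under either treatment, with WT CL316,243 spread from 1.79 to 6.87. It was lower in ERRαγAd-/- by -1.88 ± 0.32 (adjusted p = 0.000758) under PBS and -1.07 ± 0.32 (adjusted p = 0.0186) under CL316,243. The second call was lost without WT CL316,243 replicate 1 (-0.69, adjusted p = 0.0707) or replicate 3 (-1.01, adjusted p = 0.0577), without both muscle-rich ERRαγAd-/- libraries (adjusted p = 0.0565) and on the deposited scale (-0.48, adjusted p = 0.18). Col14a1 and Col20a1 were higher under CL316,243, by 0.75 ± 0.22 (adjusted p = 0.0156) and 0.69 ± 0.20 (adjusted p = 0.0177), and Col16a1 was not called (0.12 ± 0.15). The Col14a1 call was lost without WT CL316,243 replicate 2 or ERRαγAd-/- CL316,243 replicate 1 (adjusted p = 0.0686 and 0.0665), and the Col20a1 call without WT CL316,243 replicate 3 or ERRαγAd-/- CL316,243 replicate 2 (adjusted p = 0.0549 and 0.077). Col20a1 was read by 19 to 129 reads per library, so its level is imprecise, and edgeR gave 1.09 under CL316,243. Under PBS Col20a1 passed without WT PBS replicate 2 (0.71, adjusted p = 0.0211).

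The transmembrane chain Col13a1, found at cell adhesion sites, measured 1.78, 1.800 and 1.65 in WT PBS, 1.52, 1.37 and 1.74 in WT CL316,243, 0.603, 0.551 and 0.517 in ERRαγAd-/- PBS and 0.6102, 0.563 and 0.886 in ERRαγAd-/- CL316,243. The highest ERRαγAd-/- library was at 0.886 and the lowest WT library at 1.37, so the genotypes did not overlap. The change was -1.085 ± 0.13 (adjusted p = 5.66e-05) under PBS and -0.79 ± 0.13 (adjusted p = 0.000474) under CL316,243, the second not passing on the deposited scale (-0.30, adjusted p = 0.0646). Its counts were 34 to 84 reads per library. Col23a1, the other transmembrane member, was at -0.39 ± 0.17 (adjusted p = 0.094) and -0.40 ± 0.17 (adjusted p = 0.0794). Without WT PBS replicate 2 both passed (-0.56, adjusted p = 0.0226, and -0.40, adjusted p = 0.0457). Col8a1, a short-chain network collagen of vessels, was lower in ERRαγAd-/- under PBS by -0.54 ± 0.15 (adjusted p = 0.0182). The Col8a1 call was lost without WT PBS replicate 1 or 2, without ERRαγAd-/- PBS replicate 2 and without both muscle-rich libraries (adjusted p from 0.0586 to 0.0717), and the value was -0.04 (adjusted p = 0.843) on the deposited scale. Under CL316,243 Col8a1 passed without WT PBS replicate 3 (-0.34, adjusted p = 0.0359). Col28a1 was not called for genotype, at 0.37 ± 0.19 (adjusted p = 0.147) and -0.12 ± 0.19 (adjusted p = 0.638), and on the deposited scale both passed as higher, at 0.89 (adjusted p = 0.00117) and 0.49 (adjusted p = 0.0311). Without WT CL316,243 replicate 2 Col28a1 passed under PBS (0.37, adjusted p = 0.0377) and with the agonist in WT (0.61, adjusted p = 0.00948).

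The difference between the agonist responses of the 2 genotypes was tested directly, as the change in ERRαγAd-/- minus the change in WT. It was above 0 for 21 of 24 members, with a median of 0.41, but limma called 0 members, where 1.92% of all genes were called higher and 1.95% lower. At an unadjusted p under 0.05 there were 6 of 24 members, all above 0, where 9.09% of all genes were above 0 and 9.63% below, and the smallest adjusted p was 0.162, for Col6a1 at 0.59 ± 0.22. The deposited scale called 0 (3.88% and 1.26% of all genes), and edgeR called 0 of 28 (1.46% and 1.87%). Without WT PBS replicate 1 the result changed: 7 of 24 members were called above 0 and 0 below, against 1.80% of all genes tested. They were Col1a2 at 1.07 ± 0.12 (adjusted p = 0.00159), Col6a3 at 0.80 ± 0.11 (adjusted p = 0.00375), Col1a1 at 0.94 ± 0.15 (adjusted p = 0.01), Col3a1 at 1.34 ± 0.23 (adjusted p = 0.013), Col5a1 at 0.83 ± 0.15 (adjusted p = 0.0162), Col6a1 at 0.80 ± 0.15 (adjusted p = 0.0176) and Col6a2 at 0.82 ± 0.16 (adjusted p = 0.0234). In the same fit 11 members were lower after the agonist in WT, where 11.0% of all genes were, with Col1a1, Col3a1 and Col5a2 added and Col4a5 no longer called. With all 12 libraries the interaction was 0.76 for Col1a2 (adjusted p = 0.177), 0.52 for Col6a3 (adjusted p = 0.287) and 0.63 for Col1a1 (adjusted p = 0.265). It was 0.975 for Col3a1 (adjusted p = 0.173), 0.61 for Col5a1 (adjusted p = 0.172) and 0.62 for Col6a2 (adjusted p = 0.162). Leaving out any other single library gave 0 calls in the interaction. Which of the WT PBS libraries is typical cannot be told from 3.

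**Figure D4:**
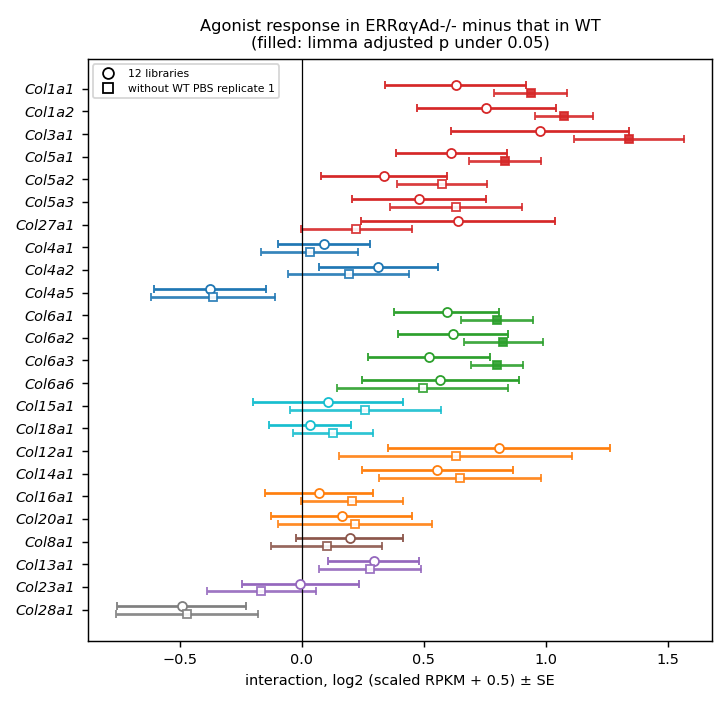
Difference between the agonist response in ERRαγAd-/- and that in WT (x axis, log2 of scaled RPKM plus 0.5, ± SE) for 24 collagen genes (y axis, coloured by class as in the plots of log2 change), as circles with all 12 libraries and squares without WT PBS replicate 1, filled where the limma adjusted p passed. No circle is filled, and 7 squares are filled between 0.80 and 1.34.

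Ratios between chains within a library do not depend on how libraries are scaled. For 11 pairs of chains an exact permutation test over samples, two-sided, with labels moved within treatment or within genotype (400 arrangements, smallest p 0.005), gave 0 pairs under 0.05 after adjustment over the 11 pairs, for genotype or for the agonist. At this number of pairs a lone ratio cannot fall below an adjusted p of 0.055. The ratio of Col6a2 to Col6a1 was 1.02 to 1.06 in the WT libraries and 1.10 to 1.17 in the ERRαγAd-/- libraries, so the genotypes did not overlap (log2 difference 0.139, exact p = 0.005, adjusted p = 0.055). The ratio of Col4a2 to Col4a1 was 0.529 to 0.683 in WT and 0.451 to 0.532 in ERRαγAd-/-, with 1 library of each genotype in the overlap (-0.27, exact p = 0.01, adjusted p = 0.055). By agonist, Col6a1 relative to Col1a1 was lower after CL316,243 in both genotypes without overlap (-0.29, exact p = 0.005, adjusted p = 0.055), at 1.25 to 1.60 in WT PBS against 1.13 to 1.16, and 1.38 to 1.46 in ERRαγAd-/- PBS against 1.03 to 1.23. Col1a1 relative to Col1a2 differed by 0.177 (exact p = 0.015, adjusted p = 0.0825). Type VI relative to type IV, Col6a1 to Col4a1, did not pass for genotype (0.03, exact p = 0.875) or for the agonist (-0.194, exact p = 0.305). These values are averages over 2 parts of opposite sign. By genotype the parts were -0.225 under PBS and 0.285 under CL316,243, and by agonist -0.449 in WT and 0.061 in ERRαγAd-/-. Col4a1 to Col1a1 was likewise 0.256 and -0.292 by genotype, and 0.178 and -0.37 by agonist. A test of the average cannot show a difference between the parts, which was not tested for ratios.

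**Figure D5:**
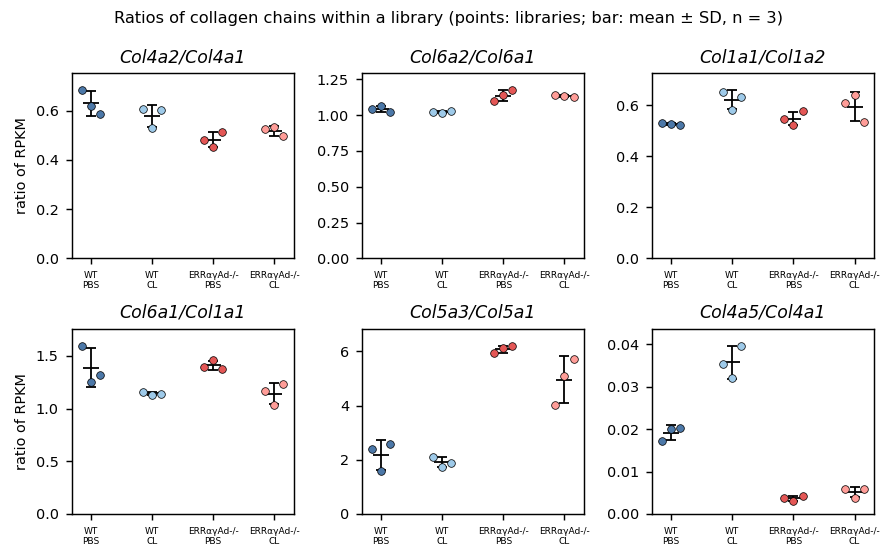
Ratio of the RPKM of 2 collagen chains within each library (y axes, from 0) in the 4 groups (x axes); points are libraries and bars the mean ± SD (n = 3). Col6a2/Col6a1 is 1.02 to 1.06 in WT and 1.10 to 1.17 in ERRαγAd-/-, and Col5a3/Col5a1 and Col4a5/Col4a1, formed after the values were seen, separate the genotypes.

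Most genes that make and process collagen were higher in ERRαγAd-/- under CL316,243. Of 25 tested genes for hydroxylases, chaperones, export, trimming and crosslinking enzymes, 15 were higher in ERRαγAd-/- under CL316,243 and 8 under PBS, with none lower, and medians of 0.46 and 0.12, where 19.9% and 15.6% of all genes were higher. Plod3, a lysyl hydroxylase, changed by 1.22 ± 0.11 (adjusted p = 3.46e-06) and 0.73 ± 0.11 (adjusted p = 0.000292). P4hb, a subunit of prolyl 4-hydroxylase, changed by 0.92 ± 0.11 (adjusted p = 2.7e-05) and 0.75 ± 0.11 (adjusted p = 0.000191). Adamts2, which removes the N-terminal propeptide, changed by 0.74 ± 0.11 (adjusted p = 0.000215) and 0.69 ± 0.11 (adjusted p = 0.000507). With the agonist in WT 8 of the 25 were lower and 0 higher by limma (median -0.38). Of all genes 12.2% were lower and 18.1% higher. By edgeR 8 of 28 were lower and 1 higher, against 12.3% and 17.1% of all genes. The limma calls were led by Adamts2 (-0.93 ± 0.11 (adjusted p = 0.000124)). Next came Pcolce, an enhancer of C-propeptide removal (-0.78 ± 0.12 (adjusted p = 0.000587)). The crosslinking enzyme Loxl2 followed (-0.68 ± 0.14 (adjusted p = 0.00364)). In ERRαγAd-/- Adamts2 alone was called, at -0.87 ± 0.11 (adjusted p = 0.000852), where 3.54% of all genes were lower and 7.01% higher. In the interaction limma called 0 of 25, where 1.92% of all genes were higher and 1.95% lower, and edgeR 0 of 28 (1.46% and 1.87%). At an unadjusted p under 0.05, 6 of 25 were above 0 and 0 below, against 9.09% and 9.63% of all genes. The deposited scale called 4 higher and 0 lower, against 3.88% and 1.26%. On that scale 23 were higher under CL316,243, 20 under PBS and 18 lower with the agonist in WT, against 70.5%, 66.3% and 38.1% of all genes.

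Among laminins, nidogens and other parts of the basement membrane, most of the genes called by genotype were higher in ERRαγAd-/-. Of 10 tested genes 5 were higher and 1 lower under each, against the same 15.6% and 19.9% of all genes higher under PBS and CL316,243. In these comparisons 18.6% and 21.6% of all genes were lower. Lamc1, a laminin γ chain, changed by 0.64 ± 0.08 (adjusted p = 9.19e-05) under PBS and 0.73 ± 0.08 (adjusted p = 2.29e-05) under CL316,243, and Nid1, a link between laminin and type IV collagen, by 0.72 ± 0.10 (adjusted p = 0.000126) and 1.083 ± 0.10 (adjusted p = 3.29e-06). Lama4, a laminin chain of fat and vessels, changed by 1.03 ± 0.16 (adjusted p = 0.000331) under PBS, and Lama2, a laminin chain of muscle and fat, by 0.98 ± 0.11 (adjusted p = 2.92e-05) under CL316,243. The gene called lower was Agrn, a heparan sulfate proteoglycan, by -0.83 ± 0.16 (adjusted p = 0.00171) and -0.61 ± 0.16 (adjusted p = 0.00894). After the agonist in WT 4 of 10 were lower, against 12.2% of all genes, led by Lamb2 (-0.74 ± 0.11 (adjusted p = 0.000587)). In ERRαγAd-/- Lamb2 alone was lower (-0.53 ± 0.11 (adjusted p = 0.0135)), against 3.54% of all genes. On the deposited scale 8 of 10 were higher and 0 lower by genotype under each treatment, near the 66.3% and 70.5% of all genes, and 7 were lower with the agonist in WT, against 38.1%.

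Of 9 genes for proteins that bind collagen fibrils, 7 had higher transcript in ERRαγAd-/- under CL316,243, against 19.9% of all genes. Under PBS 1 of 9 did, against 15.6%. Ogn, a small leucine-rich proteoglycan, changed by 1.31 ± 0.15 (adjusted p = 3.13e-05) and 0.50 ± 0.15 (adjusted p = 0.0247). Fmod, another of that family, changed by 0.79 ± 0.15 (adjusted p = 0.000953) and Sparc, a collagen-binding matricellular protein, by 0.61 ± 0.12 (adjusted p = 0.0017) under CL316,243. With the agonist in WT 4 of 9 were lower, against 12.2% of all genes. They were led by Bgn (-0.78 ± 0.14 (adjusted p = 0.0013)) and Ogn (-0.82 ± 0.15 (adjusted p = 0.00214)). Fmod followed (-0.53 ± 0.15 (adjusted p = 0.0174)). In ERRαγAd-/- Bgn alone was lower (-0.47 ± 0.14 (adjusted p = 0.0464)), against 3.54% of all genes. All 9 passed as higher on the deposited scale by genotype under both treatments, where 66.3% and 70.5% of all genes did. Of 5 tested collagen receptors 1 was higher in ERRαγAd-/- under PBS, near the share of all genes (15.6%). It was Ddr1, a receptor tyrosine kinase (1.18 ± 0.26 (adjusted p = 0.00365)). Under CL316,243 0 of 5 receptors were called by limma or edgeR, with 1 at an unadjusted p under 0.05, where 24.4% of all genes were higher. All 5 were called higher under each treatment on the deposited scale, as were 66.3% of all genes under PBS and 70.5% under CL316,243.

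Marker genes of cell types of the tissue were examined too, and the share of genes called differed between the lists. Of all genes tested, 15.6% were called higher and 18.6% lower by genotype under PBS, and 19.9% and 21.6% under CL316,243. With the agonist 18.1% were higher and 12.2% lower in WT, and 7.01% and 3.54% in ERRαγAd-/-. On the deposited scale these shares were, in the same order, 66.3% and 6.22%, 70.5% and 6.62%, 7.20% and 38.1%, and 3.23% and 13.7%. The summed level of 10 fibroblast and preadipocyte genes was 174 to 269 in WT PBS, 134 to 153 in WT CL316,243, 481 to 495 in ERRαγAd-/- PBS and 254 to 323 in ERRαγAd-/- CL316,243, without overlap between genotypes within a treatment or between treatments within a genotype. In the ERRαγAd-/- libraries most of that sum was Dpt, a matrix protein of fibroblasts, which was at 48.2 to 102, 31.00 to 36.8, 322 to 353 and 164 to 226 in the same order of groups. The separation of the sums therefore does not speak for the other genes of the list. Ly6a and Cd34, the next largest, went the other way under CL316,243, with means of 54.9 and 32.9 in WT and 41.6 and 24.5 in ERRαγAd-/-. The median log2 change of the 10 by genotype was 0.24 under PBS and 0.34 under CL316,243. By count, 1 of 10 was higher in ERRαγAd-/- under PBS, and 5 were higher and 1 lower under CL316,243. After the agonist 4 of 10 were lower in WT and 3 of 10 in ERRαγAd-/-. Without rescaling 10 and 8 of 10 were higher by genotype, and 5 were lower with the agonist in WT and 3 in ERRαγAd-/-. Of 8 general adipocyte genes 4 were higher and 1 lower in ERRαγAd-/- under PBS and 5 higher under CL316,243 (medians 0.48 and 0.63), and 7 and 8 were higher on the deposited scale. Adipoq was at 0.52 ± 0.21 (adjusted p = 0.0797) and 1.20 ± 0.21 (adjusted p = 0.00072). The summed level of these 8 was 11550 to 16790 in WT PBS and 12580 to 16980 in ERRαγAd-/- PBS, against 17790 to 19020 and 21720 to 21790 after CL316,243. Most of this sum was Fabp4, at 8306 to 12670, 8360 to 11870, 13950 to 14970 and 15050 to 15140 in the same order. With the agonist 2 of the 8 were called higher and 0 lower in each genotype. Without rescaling 2 were higher and 2 lower in WT, and 2 higher and 0 lower in ERRαγAd-/-. Of 6 genes listed as markers of brown adipocytes, not all of them confined to these cells, 3 were lower under PBS and 4 under CL316,243, the same numbers as on the deposited scale. The summed level of 7 macrophage genes was 201 to 407 in WT PBS and 114 to 149 in WT CL316,243, and 6 of 7 were lower after the agonist in WT. Macrophage genes were at 211 to 245 in ERRαγAd-/- PBS and 126 to 171 in ERRαγAd-/- CL316,243, with 1 of 7 lower. By genotype 0 of 7 were called under PBS by limma or edgeR, with 1 lower at an unadjusted p under 0.05, and 2 were higher under CL316,243; on the deposited scale 4 and 6 were higher, and 7 and 5 were lower with the agonist in WT and ERRαγAd-/-. Of 8 endothelial genes 5 were lower in ERRαγAd-/- under PBS and 2 under CL316,243, with 0 and 0 lower and 0 and 5 higher on the deposited scale, and of 8 mural genes 2 were lower under each treatment and 1, Cspg4, higher under PBS. The deposited scale gave 0 mural genes lower and 2 higher under each treatment. The limma counts of 2 of 8 lower, in endothelial genes under CL316,243 and in mural genes, lay near the share of all genes called lower (21.6% under CL316,243 and 18.6% under PBS). The summed level of 10 skeletal muscle genes ran from 1.93 to 357 in WT and from 97.9 to 2937 in ERRαγAd-/-, the highest values being 2937 in ERRαγAd-/- PBS replicate 3 and 1594 in ERRαγAd-/- CL316,243 replicate 3. The 5 Schwann cell genes summed to between 11.0 and 34.5 in all groups. Ckm, a defining muscle gene, was at 0 in WT CL316,243 replicate 2 and at 37.9, 0.0516 and 0.807 in WT PBS. The part of these marker levels in the collagen results was not tested.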

How the data were processed

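RNA-seq libraries were grouped by their titles. The authors deposited RPKM values for 24452 genes, and a second deposited table holds a linear signal for 12380 genes. Within each library that signal came in whole multiples of 1 step (100% of values, tolerance 0.01), and dividing by it returned whole reads; 9 further cells outside the sample columns stayed unused. The submitters' processing notes name bcl2fastq 2.16.0.10, STAR 2.3.0, cutadapt and edgeR, and the builds mm9 and mm10 without saying which served what. How reads were counted, with which annotation and whether by strand, is not given in the sources used here. Values of members with few reads are imprecise.

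Libraries were scaled by the median of ratios over 14005 genes. A limma model (version 3.58.1, R 4.3.3, trended empirical Bayes) was fitted on log2 of scaled RPKM plus 0.5, over the 12249 genes whose mean RPKM reached 0.5, with all 12 libraries in 1 fit of 4 group means and Benjamini-Hochberg adjustment over these genes. The 0.5 makes changes of low genes smaller. The procedure was tested on simulated data. Alternatives were edgeR 4.0.16 (quasi-likelihood) on the recovered reads, the deposited scale, pseudocounts of 0.1 and 1, other filters, only the groups compared, a replicate block and libraries left out. The members, gene lists and tests were chosen with earlier results of these data known. Every library's value is given for the main fibrillar, type IV and type VI chains, the multiplexins and members called with an absolute log2 change of at least 1; Col5a1 was added. From other lists at most 3 called genes per list, comparison and direction, those with the smallest p, were named. Gene positions are 1-based, from GENCODE M21 on GRCm38 and not from the files. Exons of other genes covered at most 5.65% of a member's exon bases (Col4a3).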

Additional observations from a re-analysis of the deposited data

How the results depend on the processing

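Counts of called members depended most on the scaling. On the deposited scale genotype under PBS gave 18 higher and 3 lower, genotype under CL316,243 gave 1 lower, the agonist in WT gave 0 higher and 15 lower, and the agonist in ERRαγAd-/- gave 2 lower; Col28a1 turned to 0.49 for genotype under CL316,243. This follows the shift of the typical gene given with the levels. With a mean RPKM of at least 2, which removes low members, genotype under PBS gave 3 lower, genotype under CL316,243 1 lower and the agonist in WT 0 higher. With only the groups compared, genotype under CL316,243 gave 5 lower and the agonist in ERRαγAd-/- 2 lower. edgeR on recovered reads gave 1 higher for the agonist in ERRαγAd-/-. Without both muscle-rich ERRαγAd-/- libraries that comparison gave 0 lower. Leaving out each library in turn gave 3 to 5 higher and 4 to 5 lower for genotype under PBS, 13 to 15 and 2 to 4 for genotype under CL316,243, 0 to 2 and 4 to 11 for the agonist in WT, 0 higher and 0 to 2 lower for the agonist in ERRαγAd-/-, 0 to 7 and 0 for the interaction, and 0 to 2 chain ratios for genotype or for the agonist. WT PBS replicate 2 or 3 decided the 5 higher, WT PBS replicate 1 the 7 and the 11, WT CL316,243 replicate 2 the 4 lower in WT, and that library and ERRαγAd-/- CL316,243 replicate 3 the 2 ratios. The agonist in ERRαγAd-/- gave 0 lower without PBS replicate 1 or 3 or CL316,243 replicate 2 of that genotype, and 2 without WT PBS replicate 1 or 3. Other pseudocounts and no filter moved no count by over 1.5 times. The replicate numbers showed no pairing that held across all 4 groups. Of 18 same-numbered pairs 7 correlated above 0.1 in their deviations (from -0.389 to 0.454), and in 7 of the 18 comparisons the best match was the same number. Pairs with a WT PBS library ran from -0.389 to 0.168, and pairs among the other groups from -0.048 to 0.454. Whether those other groups were paired was not tested. The replicate block gave the same counts as without it, such as 3 higher and 5 lower for genotype under PBS, 14 higher and 3 lower under CL316,243, and 0 chain ratios. Where an alternative moved a value and nothing above names why, the cause was not tested.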
